A study of Mus musculus with 6 samples.

Results

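The 10 genes described here are *Yap1* and *Wwtr1*, which encode the transcriptional co-activators YAP and TAZ, *Tead1*, *Tead2* and *Tead4*, which encode the DNA-binding factors that carry YAP and TAZ to chromatin, and *Ccn1*, *Ccn2*, *Ankrd1*, *Amotl2* and *Lats2*, which are among the best known targets of these complexes. They were chosen by symbol from the 20654 genes of the count table, and all 10 were found there. The counts come from muscle satellite cells (MuSCs), the stem cells of skeletal muscle, in 3 control libraries and 3 that the submitters label *Piezo1* cKO, here called cKO-labelled, all on a C57BL/6 background. The *Piezo1* cKO mice carry *Piezo1* flox/flox with *Pax7*CreERT2/+, so that tamoxifen deletes *Piezo1* in cells in which the *Pax7* promoter drives Cre. The study describes daily tamoxifen injections of mice used for ex vivo work, given before the cells were isolated. The labels call the control mice wild type, whereas the study describes the controls of its RNA-seq as *Pax7*CreERT2/+. Cells of both groups had been sorted as VCAM1+, CD31-, CD45-, Sca1- and cultured for 3 d on Matrigel in medium with 30% foetal bovine serum, 1% chicken embryo extract, 10 ng/ml bFGF and 1 μM 4-hydroxytamoxifen. The age of the mice is not given in the sources used here. Total counts were 740936, 931168 and 891531 in control 1 to 3 and 810096, 726378 and 769295 in *Piezo1* cKO 1 to 3, and each count is a unique molecular identifier (UMI), a tag that marks 1 cDNA molecule before PCR.

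In the Hippo pathway the kinases MST1/2 activate the kinases LATS1/2. YAP and TAZ are the outputs of the pathway, and phosphorylation by LATS1/2 keeps them out of the nucleus. On stiff substrates, with serum or under actomyosin tension, they enter the nucleus, bind TEAD factors and switch on genes such as *Ccn1* and *Ccn2*, whose secreted products are matricellular proteins that bind integrins and growth factors. *Amotl2* and *Lats2* are targets that restrain YAP in turn. In myogenic cells YAP is known for promoting proliferation, and TEAD factors also bind the MCAT elements of muscle genes. PIEZO1 is a calcium channel opened by membrane tension, and the comparison bears on transcripts of this mechanosensitive pathway in cells labelled as lacking it.

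TEAD factors recognise the letters GGAATG, which read CATTCC on the opposite strand. RefSeq promoter windows on GRCm38.p6, from 250 bases before to 50 bases after a start site, were matched for 7 of the 10 genes and not for *Tead1*, *Tead4* or *Ccn2*. Of the 9 windows of these 7 genes, 7 held the letters on either strand, beside 14.7% of all 32851 windows of this length and 11.7% of the windows of genes tested. The 7 include overlapping windows of *Wwtr1* that share 1 match. Because the genes were chosen as known parts or targets of this pathway, their share is a description and not evidence of enrichment. The genes whose windows held the letters were *Yap1*, *Wwtr1*, *Ccn1*, *Ankrd1*, *Amotl2* and *Lats2*. Windows of 3 targets are shown with the TEAD letters in capitals, because the fitted fold change was below 0 for *Ccn1* and *Ankrd1* and above 0 for *Amotl2*, whose window holds the letters as well. They lie at chr3:145649936-145650235 on the minus strand (*Ccn1*), at chr19:36119795-36120094 on the minus strand (*Ankrd1*) and at chr9:102717554-102717853 on the plus strand (*Amotl2*).
Ccn1: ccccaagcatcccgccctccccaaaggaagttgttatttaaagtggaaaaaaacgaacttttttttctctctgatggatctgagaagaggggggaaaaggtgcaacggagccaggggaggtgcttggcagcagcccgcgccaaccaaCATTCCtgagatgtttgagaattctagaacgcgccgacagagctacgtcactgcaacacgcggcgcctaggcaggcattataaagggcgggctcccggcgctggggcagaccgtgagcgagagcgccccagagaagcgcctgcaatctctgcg
Ankrd1: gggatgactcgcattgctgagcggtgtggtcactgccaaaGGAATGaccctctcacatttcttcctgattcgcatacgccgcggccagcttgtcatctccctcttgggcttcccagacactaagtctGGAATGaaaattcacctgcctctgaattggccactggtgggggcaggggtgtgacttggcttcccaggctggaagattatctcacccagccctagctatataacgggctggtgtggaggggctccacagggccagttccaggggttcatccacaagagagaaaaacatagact
Amotl2: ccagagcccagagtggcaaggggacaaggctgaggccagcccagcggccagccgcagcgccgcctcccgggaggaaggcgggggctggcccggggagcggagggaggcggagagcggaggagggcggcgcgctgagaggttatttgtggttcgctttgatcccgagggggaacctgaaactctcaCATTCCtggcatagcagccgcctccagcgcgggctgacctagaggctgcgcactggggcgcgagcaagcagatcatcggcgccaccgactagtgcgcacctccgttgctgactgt
The letters began 103 bases before the start site in *Ccn1*, 210 and 123 bases before it in *Ankrd1*, and 65 bases before it in *Amotl2*. A match of 6 letters is a description of the window and not a measured binding site.

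*Piezo1* (chromosome 8, 122481698-122551329 on GRCm38) had 11, 5 and 6 counts in control against 7, 12 and 9 counts in the cKO-labelled libraries, so the transcript was not lower under that label. It failed the filter on low counts, and in the edgeR fit without a filter its log2 fold change was 0.41 (SE 0.46, adjusted p = 0.736). Counts over a whole gene do not separate transcripts that lack the floxed exons from intact ones, and each direction below rests on the labels. The study also compared *Piezo1* between control and *Piezo1* cKO MuSCs by RT-qPCR, once within its RNA-seq figure, where it marks a significant difference. It made calcium measurements as well, and neither assay is analysed here. The study reports that a PIEZO1 agonist raised calcium in fresh and cultured MuSCs of control mice but not of *Piezo1* cKO mice. From this response it concludes that the deletion was effective. Whether the 6 libraries share the loss of *Piezo1* was not tested. The labelled cell type was checked against its markers. *Myod1*, the myoblast determination factor, was the most abundant of 10 MuSC and myoblast markers, with 1087 to 1569 CPM in the 6 libraries, and of the 8 markers tested none was called by edgeR, 3 had an unadjusted p under 0.05 and the median log2 fold change was -0.06. Other edgeR settings called 1 marker lower (without a filter, with at least 10 counts in every library, or without control 1, control 3 or *Piezo1* cKO 1) and 1 higher (without control 3). CPM are counts scaled to a common total over the genes tested by edgeR's TMM method, and 1 count was worth between 1.12 and 1.44 CPM. Summed over the list, 5 endothelial markers (led by *Tek*) reached at most 21.2 CPM, 3 blood cell markers (led by *Cd68*) 27.9 CPM and 5 glial markers (led by *Mbp*) 12.9 CPM in any library. Control 2 and *Piezo1* cKO 2 stood farthest apart in muscle differentiation markers, with summed levels of 183 and 2233 CPM, so results that were called are also given without both. *Cdh5*, *Ptprc* and *Cd3e*, which define endothelial and blood cells, had no entry among the counted genes.

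All 10 genes passed the filter on low counts and were tested. At an adjusted p under 0.05 edgeR called 1 of them, *Ccn1*, lower in the cKO-labelled libraries and none higher, and 7 of the 10 fitted fold changes were below 0. For comparison, edgeR called 67 (0.784%) of all 8551 genes tested, 40 (0.468%) upwards and 27 (0.316%) downwards, where a call is an adjusted p under 0.05. Scaled by total counts alone the split was 49 higher and 18 lower. At an unadjusted p under 0.05 there were 3 of the 10 genes, *Ccn1*, *Ccn2* and *Ankrd1*, all lower, against 11.9% of all genes tested. The median log2 fold change of the 10 genes was -0.14 and that of all genes tested was 0.0021. *Ccn1*, *Yap1* and *Ankrd1* were lower in each cKO-labelled library than in all controls, which held for 8.31% of all genes tested. In bulk RNA, fewer cells that express a gene and less of its RNA per cell cannot be told apart.

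**Figure D1:**
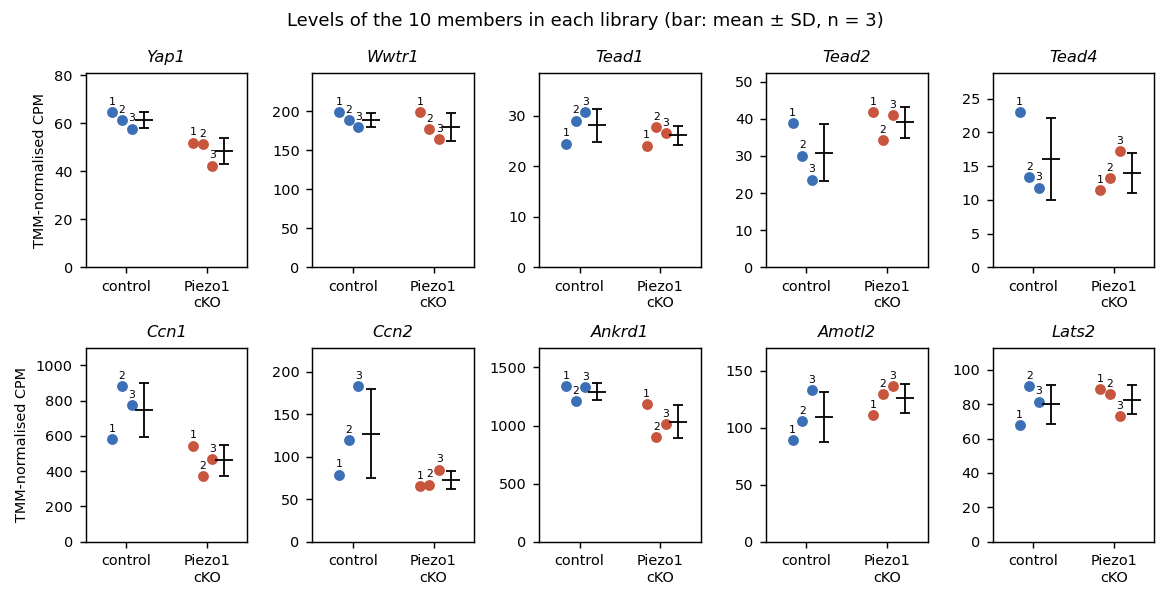
TMM-normalised CPM (y axes, each from 0) of the 10 genes in 3 control libraries (blue) and 3 cKO-labelled libraries (red), numbered by replicate, with the mean ± SD beside each group. *Ccn1*, *Yap1* and *Ankrd1* show no overlap between the groups, and the *Ccn2* values of control spread from 79.1 to 183 CPM.

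*Ccn1* (chromosome 3, 145646971-145649985), formerly Cyr61, encodes a secreted matricellular protein induced by YAP. Its level was 581, 881 and 776 CPM in control 1 to 3 and 545, 372 and 466 CPM in *Piezo1* cKO 1 to 3. Control 2 was the highest and *Piezo1* cKO 2 the lowest, while control 1 and *Piezo1* cKO 1 lay close to each other without overlapping. The means were 746 ± 152 CPM and 461 ± 86.4 CPM (SD, n = 3 each), or 0.618 times the control level. The log2 fold change was -0.70 (SE 0.15, 95% interval from -0.99 to -0.40, adjusted p = 0.00591, edgeR's quasi-likelihood test), and DESeq2 gave -0.71 (adjusted p = 0.00641). In edgeR the call was lost without *Piezo1* cKO 2 (-0.57, adjusted p = 0.178), without *Piezo1* cKO 3 (-0.71, adjusted p = 0.0529), and with control 2 and *Piezo1* cKO 2 both left out (-0.43, adjusted p = 0.0807). It was also lost after cyclic loess normalisation in limma (-0.52, adjusted p = 0.0556).

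*Ccn2* (chromosome 10, 24595442-24598683), formerly Ctgf, encodes a second secreted CCN protein and is a standard reporter of YAP and TEAD activity. Control 1 to 3 had 79.1, 119 and 183 CPM, and *Piezo1* cKO 1 to 3 had 65.9, 67.4 and 84.8 CPM. The 3 cKO-labelled libraries lay close together, whereas control 3 was far above control 1, and control 1 was below *Piezo1* cKO 3. The log2 fold change of -0.82 (SE 0.24, 95% interval from -1.34 to -0.31) was the lowest of the 10 genes, but its adjusted p was 0.159 in edgeR and 0.202 in DESeq2. Without control 1 it was -1.05 (adjusted p = 3.9e-04, edgeR) and without control 2 it was -0.87 (adjusted p = 0.00128, edgeR), whereas without control 3 it was -0.47 (adjusted p = 0.292, edgeR). With control 2 and *Piezo1* cKO 2 both left out it was -0.83 (adjusted p = 0.0251, edgeR).

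**Figure D2:**
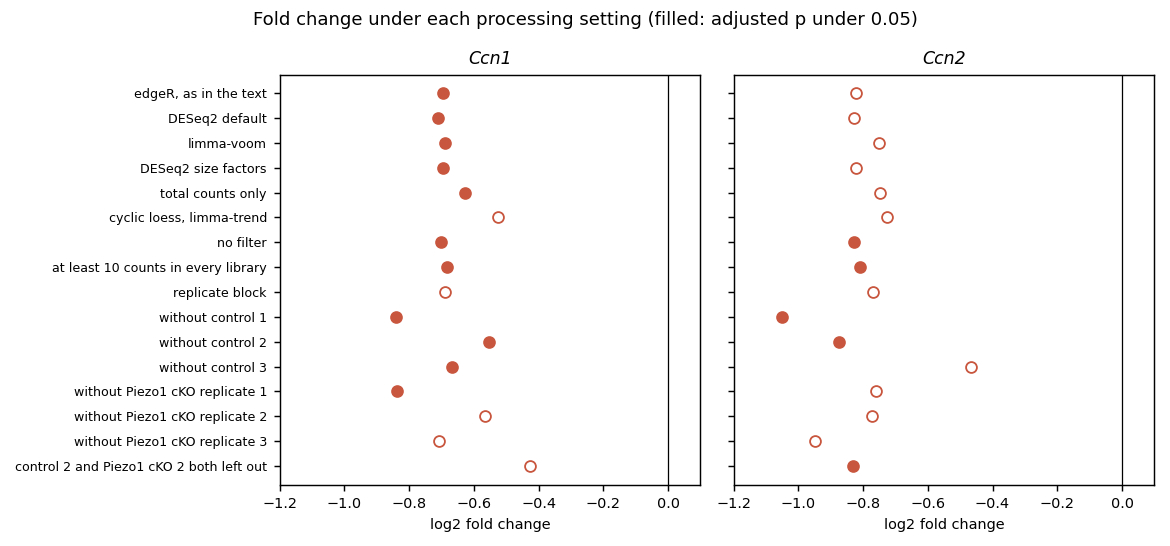
Log2 fold change (x axis) of *Ccn1* and *Ccn2* in the cKO-labelled libraries relative to control under each processing setting (y axis), filled where the adjusted p was under 0.05. All values lie below 0, from -0.84 to -0.43 for *Ccn1* and from -1.05 to -0.47 for *Ccn2*, and the settings that fill the symbols differ between the genes.

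*Ankrd1* (chromosome 19, 36111965-36119844) encodes a nuclear and sarcomeric ankyrin repeat protein and is a target of YAP in many cell types as well as a gene of stressed muscle. It had 1337, 1211 and 1328 CPM in control against 1188, 901 and 1012 CPM in the cKO-labelled libraries. The groups did not overlap, with *Piezo1* cKO 1 just under control 2. Its log2 fold change was -0.32 (SE 0.15, 95% interval from -0.61 to -0.03), with an unadjusted p of 0.0304 and an adjusted p of 0.357 by edgeR (0.266 by DESeq2). After cyclic loess normalisation in limma the log2 fold change was -0.09 (adjusted p = 0.770).

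The other targets, *Amotl2* and *Lats2*, encode inhibitors of YAP. *Amotl2* (chromosome 9, 102717091-102733418), an angiomotin that holds YAP at junctions and actin, had 89.2, 106 and 133 CPM in control against 111.5, 129 and 136.5 CPM in the cKO-labelled libraries. These ranges overlapped, and the log2 fold change was 0.19 (SE 0.16, 95% interval from -0.13 to 0.52, adjusted p = 0.703, edgeR). *Lats2* (chromosome 14, 57689662-57746212), a kinase that phosphorylates YAP and TAZ, had 67.6, 90.3 and 81.5 CPM in control against 88.7, 85.8 and 72.9 CPM in the cKO-labelled libraries. Its log2 fold change of 0.04 (SE 0.18, 95% interval from -0.32 to 0.40, adjusted p = 0.961, edgeR) was the smallest in size of the 10 genes. The intervals of *Amotl2* and *Lats2* lie above the fitted fold change of *Ccn1*. The differences between targets were not tested.

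*Yap1* (chromosome 9, 7931999-8004638) had 64.7, 61.3 and 57.9 CPM in control against 52.0, 51.5 and 42.4 CPM in the cKO-labelled libraries. Each cKO-labelled library was below all controls, and the log2 fold change was -0.33 (SE 0.22, 95% interval from -0.76 to 0.10, adjusted p = 0.573, edgeR). This difference rests on 32 to 55 counts per library. *Wwtr1* (chromosome 3, 57455644-57575910), the gene for TAZ, had 198.5, 188.5 and 179.5 CPM in control against 199, 177 and 164 CPM in the cKO-labelled libraries. Its groups overlapped over most of their range. The log2 fold change of *Wwtr1* was -0.07 (SE 0.14, 95% interval from -0.35 to 0.22, adjusted p = 0.917, edgeR), so no change was detectable at this depth.

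The TEAD transcripts had few counts. *Tead1* (chromosome 7, 112679356-112906784) had 24.4, 29.0 and 30.7 CPM in control against 24.1, 27.7 and 26.5 CPM in the cKO-labelled libraries, a log2 fold change of -0.11 (SE 0.29, adjusted p = 0.924, edgeR). *Tead2* (chromosome 7, 45215792-45233468) had 38.8, 30.1 and 23.6 CPM in control against 41.8, 34.3 and 41.1 CPM in the cKO-labelled libraries. Its log2 fold change was 0.36 (SE 0.26, 95% interval from -0.17 to 0.88, adjusted p = 0.631, edgeR), and the groups overlapped. *Tead4* (chromosome 6, 128227143-128300813), the TEAD factor known for its induction by MyoD and myogenin, had 16, 12 and 10 counts in control against 9, 10 and 13 counts in the cKO-labelled libraries. With so few counts its log2 fold change of -0.17 had a 95% interval from -0.94 to 0.60 (adjusted p = 0.919, edgeR). *Tead3*, which is not among the 10 genes, had between 1 and 4 counts per library and was not tested.

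**Figure D3:**
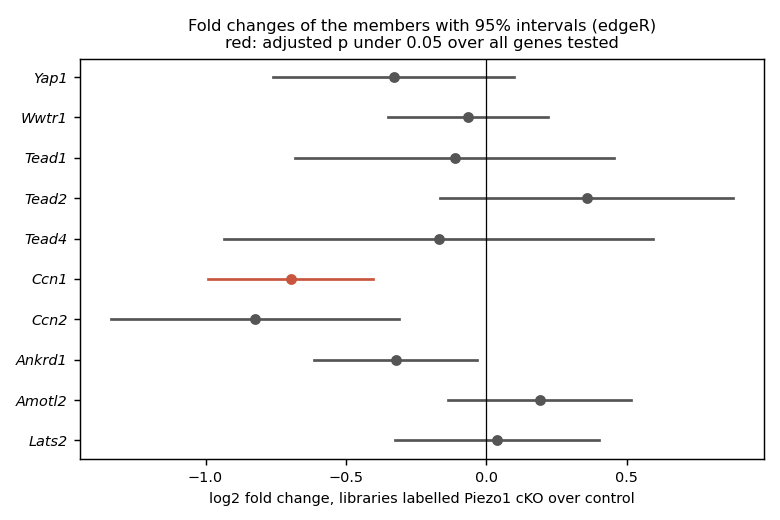
Log2 fold change (x axis, cKO-labelled libraries over control) of the 10 genes with 95% intervals from edgeR, in red where the adjusted p over all genes tested was under 0.05. The intervals of *Ccn1*, *Ccn2* and *Ankrd1* lie below 0, and *Ccn1* is the gene in red.

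*Tead3* and cofactors that compete with YAP and TAZ for TEADs were examined in a list of 6 genes, of which 5 had an entry and 3 were tested. *Vgll3* (chromosome 16, 65815189-65866368), a vestigial-like cofactor of TEADs expressed in myoblasts, fell by 0.80 on the log2 scale (SE 0.18, adjusted p = 0.0136, edgeR). Its level was 104, 187 and 140.5 CPM in control against 101, 79.2 and 68.9 CPM in the cKO-labelled libraries. Control 2 was the highest, and control 1 lay just above *Piezo1* cKO 1. The call held in 6 of 15 alternatives (its loss with a replicate block is given at the end). It was lost in DESeq2 (adjusted p = 0.108), in limma-voom (adjusted p = 0.0516), after cyclic loess normalisation in limma (adjusted p = 0.0570), and in edgeR with total counts only (adjusted p = 0.0556), without control 2 (adjusted p = 0.162), *Piezo1* cKO 2 (adjusted p = 0.317) or *Piezo1* cKO 3 (adjusted p = 0.149), and with control 2 and *Piezo1* cKO 2 both left out (-0.53, adjusted p = 0.346). *Vgll4*, a repressor of TEAD activity, had a log2 fold change of -0.51 (SE 0.19, adjusted p = 0.214, edgeR) and *Vgll2* one of -0.08 (SE 0.29, adjusted p = 0.953, edgeR).

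A list of 17 further YAP and TAZ targets known from other cell types gave 11 tested genes, with 1 called lower, none called higher and a median log2 fold change of 0.28. *Igfbp3* (chromosome 11, 7206086-7215498), a secreted IGF-binding protein, was lower, by a log2 fold change of -0.73 (SE 0.16, adjusted p = 0.0159 in edgeR, 0.0117 in DESeq2). It had 503, 715 and 551 CPM in control against 473, 306 and 292 CPM in the cKO-labelled libraries, with the smallest gap again between control 1 and *Piezo1* cKO 1. The *Igfbp3* call was lost in edgeR without *Piezo1* cKO 2 (adjusted p = 0.434) or *Piezo1* cKO 3 (adjusted p = 0.123), with total counts only (adjusted p = 0.0979), and with control 2 and *Piezo1* cKO 2 both left out (-0.47, adjusted p = 0.0622). *Crim1*, a transmembrane antagonist of BMPs, had a log2 fold change of 1.23 (SE 0.40, adjusted p = 0.142, edgeR), at 8.63 ± 4.54 CPM in control against 20.4 ± 0.98 CPM under the *Piezo1* cKO label (SD, n = 3 each). Control 3 had 3.54 CPM, which is 3 counts, and without control 3 the log2 fold change was 0.85 (adjusted p = 0.393, edgeR). *Gadd45a*, a stress and growth arrest gene, had one of 0.69 (SE 0.23, adjusted p = 0.142, edgeR). Without overlap between the groups, 5 of the 11 genes were higher and 2 lower, beside 8.2% and 8.31% of all genes tested. The log2 fold change was above 0 in 7 of the 11 genes and below 0 in 4.

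Of the 12 other CCN and matricellular genes, 6 were tested and none was called by edgeR in either direction, nor by DESeq2 among the 5 that it adjusted, with 1 at an unadjusted p under 0.05. That gene was *Ccn4*, a CCN family member linked to Wnt signalling, with 79.1, 88.1 and 105 CPM in control against 101, 124 and 126 CPM in the cKO-labelled libraries (log2 fold change 0.36, SE 0.17, adjusted p = 0.376, edgeR). The *Ccn4* levels overlapped, as control 3 was above *Piezo1* cKO 1. *Ccn3*, *Ccn5* and *Ccn6* had at most 6 counts in any library. *Sparc*, a collagen-binding matricellular protein, had a log2 fold change of -0.27 (SE 0.14, adjusted p = 0.438, edgeR). *Spp1*, which encodes osteopontin and had 2097 to 3643 CPM, had one of -0.21 (SE 0.17, adjusted p = 0.670, edgeR), and after cyclic loess normalisation its sign turned to 0.15.

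Upstream of YAP and TAZ, 21 of 26 further Hippo kinases, scaffolds and regulators were tested, and none was called by edgeR, none had an unadjusted p under 0.05, and DESeq2 called none of the 8 that it adjusted. Their log2 fold changes ran from -0.25 to 0.47 with a median of 0.12, and the highest were those of *Stk4*, which encodes MST1 (0.47, SE 0.25, adjusted p = 0.439, edgeR), *Taok3* (0.46, SE 0.30, adjusted p = 0.571, edgeR) and the atypical cadherin gene *Fat1* (0.41, SE 0.25, adjusted p = 0.541, edgeR). *Ccn1* and *Ccn2* are also targets of SRF with its actin-regulated partners MRTF. Among 16 genes of SRF and MRTF and their targets, 12 were tested, 1 was called higher and none lower, with a median log2 fold change of 0.05. The called gene was *Myl9*, a myosin regulatory light chain, with 116, 65.8 and 68.5 CPM in control against 179, 168 and 110.0 CPM in the cKO-labelled libraries. Control 1 was above *Piezo1* cKO 3, and the log2 fold change of 0.89 (SE 0.20, adjusted p = 0.0229, edgeR) was opposite in direction to that of *Ccn1*. *Acta2*, smooth muscle actin, had a log2 fold change of 0.74 (SE 0.67, adjusted p = 0.760, edgeR) and *Cnn2*, a calponin, one of 0.43 (adjusted p = 0.199, edgeR). Without control 3, *Cnn2* was called higher (0.71, adjusted p = 0.0155, edgeR). The *Acta2* value was 1.58 without control 3, 0.31 without control 2 and 0.09 with control 2 and *Piezo1* cKO 2 both left out, none called. The *Myl9* call was lost in DESeq2 (adjusted p = 0.0863) and in edgeR without *Piezo1* cKO 2 (adjusted p = 0.369) or control 3 (adjusted p = 0.0687), and with control 2 and *Piezo1* cKO 2 both left out (0.67, adjusted p = 0.0807).

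**Figure D4:**
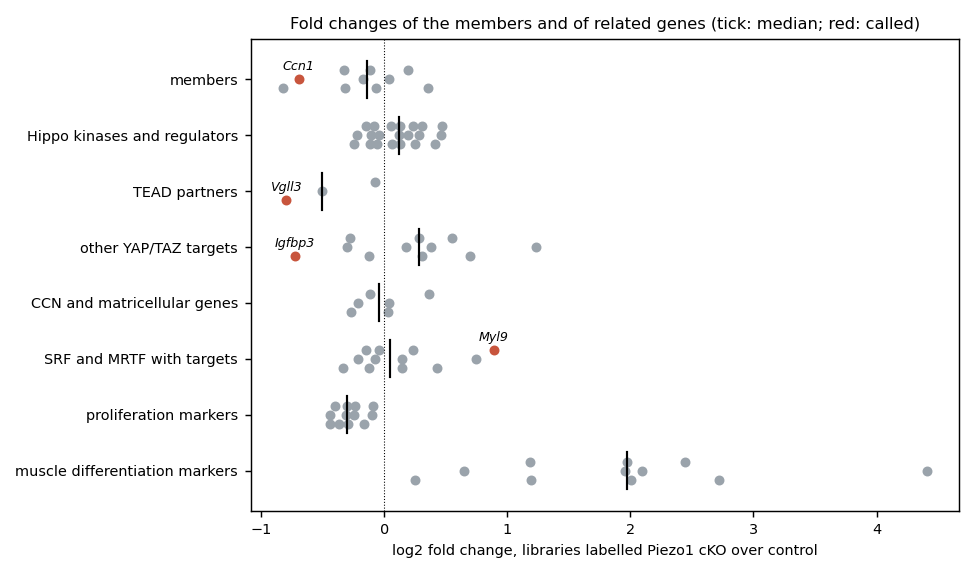
Log2 fold change (x axis, cKO-labelled libraries over control) of every tested gene of the 10 described genes (labelled members), of 5 lists of related genes and of 2 marker lists (y axis), with the median of each list as a tick and genes called by edgeR in red. Called genes are *Ccn1*, *Vgll3*, *Igfbp3* and *Myl9*, and the muscle differentiation markers all lie above 0.

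Muscle differentiation markers put the 6 libraries in exactly the reverse order of *Ccn1*. Summed over 16 muscle differentiation markers present in the table, the level was 544, 183 and 435 CPM in control 1 to 3 and 757, 2233 and 1056 CPM in *Piezo1* cKO 1 to 3. Control 2, with the highest *Ccn1*, had the lowest sum, and *Piezo1* cKO 2, with the lowest *Ccn1*, had the highest. Of the 11 differentiation markers tested, all had a fold change above 0 (median log2 fold change 1.97), none was called by edgeR, and the unadjusted p was under 0.05 in 6. Without overlap between the groups, 9 of the 11 were higher, beside 8.2% of all genes tested. The count of called markers moved with the setting, to 1 in DESeq2 (*Acta1*, adjusted p = 0.00485), 4 in edgeR without a filter, 6 in edgeR with control 2 and *Piezo1* cKO 2 both left out and 8 each in limma-voom and after cyclic loess normalisation. *Myh8* had at most 1 count in any library, and *Ckm* and *Tnnc2* had no entry among the counted genes. The most abundant gene of this list was *Acta1*, skeletal muscle actin, with 63.6 to 466 CPM. The 12 proliferation markers summed to 2314, 2757 and 2497 CPM in control against 2390.5, 1858 and 2033 CPM in the cKO-labelled libraries, the same order of libraries as for *Ccn1* except that control 1 and *Piezo1* cKO 1 change places. All 12 had a fold change below 0 (median log2 fold change -0.30), and 3 were lower without overlap, beside 8.31% of all genes tested. Of the 12, none was called by edgeR, nor by DESeq2 among the 11 that it adjusted, and 5 had an unadjusted p under 0.05. Without *Piezo1* cKO 1, edgeR called 2 of them lower. The most abundant of them was *Ccnb1*, with 305 to 463 CPM. The part of differentiation and proliferation in the *Ccn1* result was not tested.

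**Figure D5:**
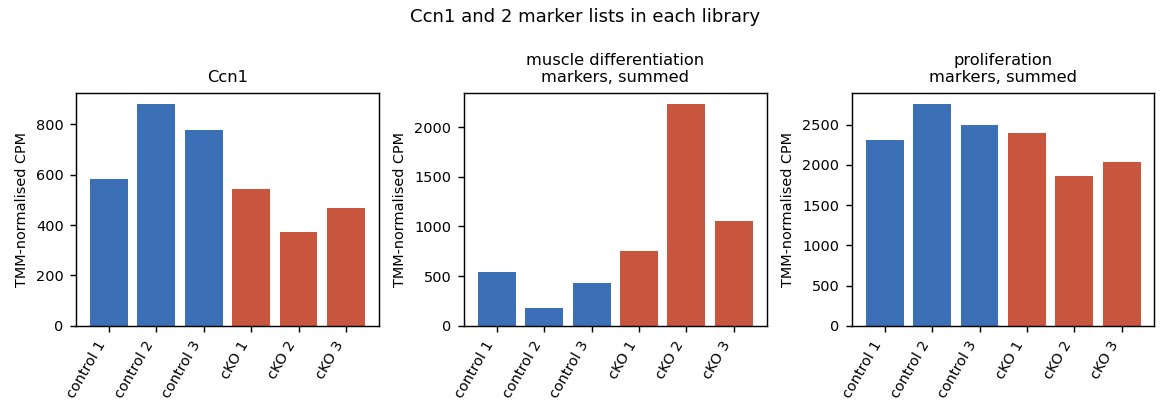
TMM-normalised CPM (y axes, from 0) of *Ccn1* and of the summed muscle differentiation and proliferation markers in each library (x axes), control in blue and *Piezo1* cKO in red, 1 bar per library without error. *Ccn1* is highest in control 2 (881 CPM) and lowest in *Piezo1* cKO 2 (372 CPM), where the differentiation markers are lowest (183 CPM) and highest (2233 CPM).

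Fibroblasts express matricellular genes strongly, and their markers were examined as well. Of 9 fibroblast markers 8 had an entry, and their sum was 308, 428 and 531 CPM in control against 411, 411 and 431 CPM in the cKO-labelled libraries. The 4 tested had a median log2 fold change of -0.59, all 4 had an unadjusted p under 0.05, 2 were lower without overlap, and 1 was called lower by edgeR. The called gene, *Dcn*, which encodes the proteoglycan decorin, fell (log2 fold change -2.17, SE 0.38, adjusted p = 3.9e-04, edgeR), at 25.9, 25.7 and 43.7 CPM in control against 10.1, 6.60 and 3.98 CPM in the cKO-labelled libraries. It was called in all 13 alternatives that gave it an adjusted p. The most abundant, *Col3a1*, had 157 to 285 CPM and a log2 fold change of 0.41 (SE 0.16, adjusted p = 0.265, edgeR), opposite in sign to *Dcn*, and *Col1a2* had one of 0.85 (SE 0.25, adjusted p = 0.125, edgeR). *Cd34*, a surface marker that quiescent MuSCs carry as well, had 76.2, 192 and 107 CPM in control against 49.4, 30.4 and 46.4 CPM in the cKO-labelled libraries, without overlap (log2 fold change -1.59, SE 0.40, adjusted p = 0.181 in edgeR, 8.2e-04 in DESeq2). In limma-voom, after cyclic loess normalisation, and in edgeR without a filter, without control 1, without control 2 and with control 2 and *Piezo1* cKO 2 both left out, 2 fibroblast markers were called lower. Fibroblast markers were also called higher in some edgeR settings, 1 each without a filter, with at least 10 counts in every library (where 0 were lower) and without *Piezo1* cKO 1, and 2 without control 3. The sort kept VCAM1+ Sca1- cells, a gate that removes fibro-adipogenic cells, and *Ly6a*, the gene for Sca1, had 2, 2 and 3 counts in control against 5, 8 and 9 counts in the cKO-labelled libraries. *Pdgfra*, the defining receptor of fibro-adipogenic cells, had 4, 3 and 8 counts in control against 1, 1 and 3 counts in the cKO-labelled libraries. Smooth muscle and pericyte markers summed to 244, 109 and 485 CPM in control against 409, 573 and 431 CPM in the cKO-labelled libraries, mostly through *Acta2*, which had 73.6 to 499 CPM, and 2 of them were tested with none called. *Myh11*, the defining smooth muscle myosin, had at most 1 count in any library. The part of these cells in the results was not tested.

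Among the 8541 tested genes outside the 10, those whose log2 CPM followed *Ccn1* most closely over the 6 libraries were *Tacc3*, a spindle protein gene (Pearson's r = 0.998), *Tfrc*, the transferrin receptor gene (r = 0.993), and *Farsb*, a subunit of phenylalanyl-tRNA synthetase (r = 0.989). These are the highest of 8541 coefficients over 6 libraries that also differ in depth and in differentiation markers, and they are given as a description. *Tacc3* had 211, 243 and 229 CPM in control against 205, 180 and 195 CPM in the cKO-labelled libraries, a much narrower range than *Ccn1*. *Tfrc* had a log2 fold change of -0.48 (SE 0.15, adjusted p = 0.0942, edgeR), *Farsb* one of -0.38 (SE 0.15, adjusted p = 0.234, edgeR) and *Tacc3* one of -0.24 (SE 0.14, adjusted p = 0.502, edgeR). None of these 3 genes was called.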

How the data were processed

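MuSC RNA was sequenced in 6 libraries, 3 per group, from 500 pg of RNA with oligo-dT UMI primers and 12 PCR cycles. The authors deposited UMI counts per gene without normalisation, and the submitters' processing notes name STAR 2.7.9a, featureCounts 2.0.1, UMI-tools 1.1.1 and GRCm38. Settings for strand and multi-mapping reads are not given in the sources used here, so genes with near-identical copies or overlaps are uncertain. Counts were tested in R 4.3.3 with edgeR 4.0.16 (TMM, minimum count of 10, robust quasi-likelihood test, Benjamini-Hochberg adjustment over 8551 genes). Alternatives used DESeq2 1.42.0 and limma 3.58.1, other scalings and filters, a replicate block and each library left out. The setting without control 2 and *Piezo1* cKO 2 was chosen after seeing the data. The members and lists were chosen with earlier results of these data known. The genes named were the members, *Piezo1*, the called genes of each pathway list filled up to 3 by the size of the fold change, the most abundant and the called genes of each marker list, and the 3 genes most like *Ccn1*. *Tead3*, *Ccn3*, *Ccn5*, *Ccn6*, *Myh8*, *Cd34*, *Col1a2* and the defining markers were named after their values were seen. Nothing in the labels says that replicates are separate mice, so p-values measure the spread between these libraries. A floor of 3 counts was 3.35 to 4.31 CPM, and floors cover counting error only. On simulated counts (8580 genes) edgeR recovered 81 of 100 2-fold and 94 of 100 3-fold changes with 8 false calls, and DESeq2 (17950 genes) 54 and 82 with 1 false call. The simulation gave all genes the same relative spread and changed only genes that had passed the filter. It therefore does not measure recovery for genes that vary more between libraries. Promoter windows are from RefSeq. Some listed genes are not reported here.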

Additional observations from a re-analysis of the deposited data

How the results depend on the processing

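Over all genes tested, the 67 calls of edgeR became 27 in DESeq2 (12 higher, 15 lower) and 129 without a filter (82 higher, 47 lower). With each library left out in turn they ranged from 6 (4 higher, 2 lower; without *Piezo1* cKO 2) to 174 (101 higher, 73 lower; without *Piezo1* cKO 1), and with control 2 and *Piezo1* cKO 2 both left out 47 genes were called (22 higher, 25 lower). Of the 10 genes, 0 were called lower after cyclic loess normalisation, 2 without a filter, 2 with at least 10 counts in every library, and 0 to 2 with each library left out. The log2 fold change of *Ccn1* was -0.52 after cyclic loess normalisation and -0.43 without both libraries 2, neither called, and lay between -0.84 and -0.55 with each library left out. That of *Ccn2* passed the threshold without a filter (-0.83), with at least 10 counts in every library (-0.81) and without both libraries 2 (-0.83), and lay between -1.05 and -0.47 with each library left out. The sign turned for *Wwtr1* with total counts only (0.0106) and for *Spp1* after cyclic loess normalisation (0.15). With each library left out, *Tead4* lay between -0.35 and 0.14, *Lats2* between -0.0556 and 0.14 and *Vgll2* between -0.22 and 0.0637. The cause was not tested. DESeq2 gave no adjusted p for *Yap1*, *Tead1*, *Tead2* and *Tead4*. These transcripts had 9 to 55 counts per library, and the width of their intervals bounds what can be said at this depth.

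The replicate numbers did not pair the libraries, since the deviations of same-numbered libraries had correlations across genes of -0.143, -0.203 and 0.0121. With the replicate block, 46 genes were called (26 higher, 20 lower), 0 of the 10 genes were called, and the log2 fold change of *Ccn1* was -0.69 (adjusted p = 0.0708, edgeR). The calls of *Vgll3* (adjusted p = 0.0684) and *Igfbp3* (adjusted p = 0.0539) were lost with the block in edgeR and that of *Myl9* was not (adjusted p = 0.0153). With the block, 1 fibroblast marker and 1 muscle differentiation marker were called higher.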
